A study of Mus musculus with 18 samples.

Results

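Transcripts of 36 macrophage and other myeloid genes were followed through RNA sequencing libraries of sorted mouse endothelial cells and of a mouse breast cancer cell line. The genes were taken from a written list and found by Ensembl identifier among the 55401 genes of the endothelial table and by symbol among the 22612 lines of the EO771 table, and all 36 were present in both. They had been listed because their RNA was high in blood vessel endothelial cells (BECs) of tumours, so their levels in that group are given as a description with no test. The study compared endothelial cells of blood vessels with high endothelial cells (HECs), which line the venules through which lymphocytes enter lymph nodes, in mice with and without a tumour, and asked in culture what 12-HETE, a lipid made by the lipoxygenase ALOX12, does to tumour cells.

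There were 18 libraries in 6 groups of 3. Wild-type female C57BL/6 mice gave BECs from fat pads of the mammary gland (BEC normal), BECs from primary EO771 tumours grown there (BEC tumour), HECs from inguinal lymph nodes from mice without a tumour (HEC normal), and HECs from mice with a tumour (HEC tumour), for which the labels name lymph node metastases as the tissue. Endothelial cells were sorted as CD45- and CD31high, with PNAd, the addressin of high endothelium, present on HECs and absent from BECs. The gate on CD45, the product of Ptprc, should remove leukocytes. Fat pads, tumours and lymph nodes were digested with different enzymes, so the tissue of origin and the digestion cannot be told apart. The other 6 libraries were cultured EO771 cells given vehicle (EO771 vehicle) or 12-HETE (EO771 12-HETE). The study's legends call the libraries of a group independent experiments, and do not say which mice or cultures, pooled or single, went into each, so a p-value measures the spread between these samples.

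Macrophages are phagocytes that take up dead cells, lipoproteins and antibody-coated particles through scavenger and Fc receptors, and their survival depends on the receptor encoded by Csf1r. Many of their genes are switched on by PU.1, the transcription factor encoded by Spi1, whose sites carry the core GAGGAA. In tumours, macrophages often lie along vessels, and they are described by states such as tissue-resident, inflammatory, alternatively activated or lipid-associated. Endothelial cells share some genes with them, among them scavenger receptors and lysosomal proteins.

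Because the members include the gene of PU.1, their promoters were searched for its core on both strands, as GAGGAA or, on the opposite strand, TTCCTC. RefSeq promoters of GRCm38.p6, from 250 bases before to 50 bases after the gene start, were on hand for 27 members, and 18 of these (66.7%) held the core, against 31.3% of 27025 genes. The other 9 members, Spi1, Tyrobp, C1qa, Msr1, Arg1, Cd14, Adgre1, Csf2rb and Csf1r, had no entry. Longer or shifted forms were searched as well: GAGGAAGT was found in 3 members (11.1%, against 3.69% of genes), AGAGGAAG in 6 (22.2% against 5.22%) and GGAAGTG in 10 (37.0% against 12.5%). These letters overlap one another, and a match describes the sequence only. The following 30-base windows show the core in members on which the results below turn, with the core in capitals.
Ptprc: tgttttcctttaGAGGAAaattgagacgaa
C1qb: gcagcaggatggGAGGAAcagaggggtgat
C1qc: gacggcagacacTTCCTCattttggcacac
Cd68: tttcttaccaatGAGGAAagggcttcccat
Fcgr3: gagtccatttccTTCCTCtttttgtagttc
Fcgr1: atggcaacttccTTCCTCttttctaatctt
Trem2: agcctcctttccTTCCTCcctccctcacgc
Laptm5: gcagcctgtggcTTCCTCttttttgttctg
Plek: tcagatatctagTTCCTCtttctgactcgt
The windows lie at chr1:138175446-138175475 for Ptprc, chr4:136886213-136886242 for C1qb, chr4:136893090-136893119 for C1qc, chr11:69666378-69666407 for Cd68, chr1:171059392-171059421 for Fcgr3, chr3:96294007-96294036 for Fcgr1 and chr11:17008762-17008791 for Plek, all on the minus strand. Those of Trem2, at chr17:48346349-48346378, and Laptm5, at chr4:130913266-130913295, lie on the plus strand. All are shown 5′ to 3′ on the strand of the gene. Lyz2, Mertk, Cd163, Folr2, Fcgr2b, Fcer1g, Lcp1, Coro1a and S100a9 had a promoter entry without the core in this window.

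The deposited endothelial values summed to between 56.4 and 79.4 M per library and rose in steps of 3.66 to 3.79, so that 1 unit was not 1 sequenced fragment. Divided by the step, the totals were 15.1 to 21.3 M, and the EO771 libraries held 17.3 to 18.6 M counts. Levels below are DESeq2 normalised counts, the deposited values scaled to a common library size. A mean of 3 fragments, which is 11.1 deposited units in the endothelial table and 3 counts in the EO771 table, is called the floor, since a gene at or under it cannot be told from 0. The floor covers counting error only. Cdh5, the cadherin of endothelial junctions, was high in all groups, at 61727, 61486 and 59225 in BEC tumour and at means of 49301 in HEC normal and 44000.0 in HEC tumour, and Pecam1, which encodes CD31, read 40818, 40945 and 41360.5 in BEC tumour. Cldn5, a claudin of endothelial tight junctions, read 17.6, 37.2 and 16.6 in BEC tumour against 15828, 19545 and 17939 in BEC normal.

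The members were high together in BEC tumour, in a description without a test. In 35 of 36 members, every BEC tumour library lay above every BEC normal library, where 29.1% of all genes tested did so, and no member was lower in every library, where 30.4% of genes were. A difference of over 2-fold with no overlap was found for 34 members, against 13.4% of genes, and the exceptions were Coro1a, at 1.83-fold, and S100a9, whose libraries overlapped. Without BEC tumour replicate 3, 34 members met the same description, and without BEC normal replicate 1, 36 did. The median log2 difference of the members was 5.90, beside 0.01 for all genes. As the members were listed for this contrast, nothing is drawn from these counts. The source of this RNA in the sorted cells was not tested. In bulk libraries a larger number of cells that hold it and more of it per cell cannot be told apart.

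**Figure D1:**
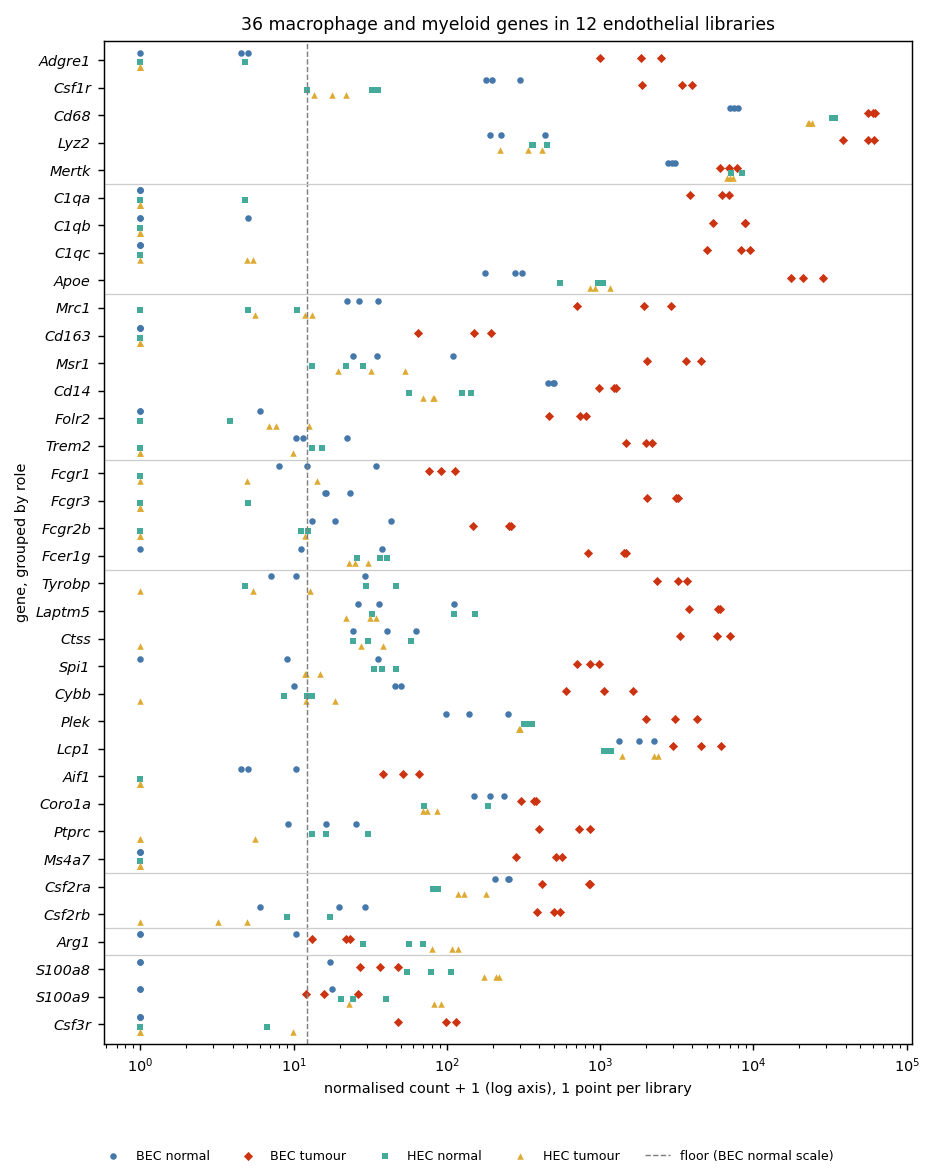
Normalised count plus 1 (log axis) of the 36 members in each of the 12 endothelial libraries, 1 point per library, grouped by role, with the floor, on the scale of BEC normal, as a dashed line. The BEC tumour points stand to the right of the BEC normal points in 35 of 36 members, and Cd68, Mertk, Lcp1 and Plek are among those above the floor in every library.

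Among the defining receptors of macrophages, Adgre1, which encodes F4/80, was near 0 outside BEC tumour. It read 2515, 1849 and 1005 in BEC tumour, 3.53, 0 and 4.06 in BEC normal, 0, 0 and 3.82 in HEC normal, and 0 in all HEC tumour libraries. Csf1r, the receptor for macrophage colony-stimulating factor, read 3991, 3423 and 1865 in BEC tumour and 301, 180.0 and 197 in BEC normal, which is 13.7-fold higher. Unlike Adgre1, Csf1r was thus above the floor in BECs of the fat pad, while it was at 11.2 to 34.5 in the 6 HEC libraries. Exons of Csf1r overlap those of Hmgxb3, and reads there may belong to either.

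Lyz2, the lysozyme of macrophages and granulocytes, was the member with the second highest level. It read 61605, 56093 and 38199 in BEC tumour against 436, 224 and 191 in BEC normal, 183-fold lower, and 222 to 452 in the HEC libraries. Lyz1 is a near copy, so reads may have been exchanged between the pair. Cd68, a glycoprotein of late endosomes and lysosomes, behaved differently. It read 60812, 62056 and 56302 in BEC tumour and 7967, 7506 and 7070 in BEC normal, a difference of 7.95-fold, and it was at 32610, 32957 and 34239 in HEC normal. Mertk, the receptor tyrosine kinase that clears apoptotic cells, read 7879, 6969 and 6029 in BEC tumour and 3087, 2769 and 2966 in BEC normal, 2.37-fold apart. Both HEC groups held as much Mertk as BEC tumour, with 7145 to 8474 in HEC normal and 6772 to 7403 in HEC tumour.

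The 3 chains of complement C1q lie side by side on the minus strand of chromosome 4 (GRCm38), C1qb at chr4:136880129-136886187, C1qc at chr4:136889804-136893065 and C1qa at chr4:136895917-136898803. C1q starts the classical complement pathway and is made in quantity by macrophages. C1qa read 6887, 6231 and 3847 in BEC tumour and 0 in all BEC normal libraries, at least 502-fold higher when the floor over the group stands for the 0. C1qc read 9514, 8296 and 4951 against 0 in all 3, at least 674-fold, and C1qb read 8829, 8881 and 5427 against 0, 0 and 4.06. In the 6 HEC libraries no chain exceeded 4.43, about 1 fragment. Apoe, the lipid carrier that macrophages secrete, read 28506, 21172 and 17644 in BEC tumour and 277, 307 and 178 in BEC normal, 88.4-fold apart, and stood at 547 to 1164 in the HEC libraries.

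Scavenger and pattern receptors were spread widely. Msr1, the class A scavenger receptor, read 4553, 3615 and 2016 in BEC tumour and 108, 34.1 and 23.4 in BEC normal, 61.4-fold apart. Mrc1, the mannose receptor CD206, read 2888, 1923 and 707 against 21.2, 25.9 and 34.5, 67.6-fold apart, and had the widest spread between the BEC tumour libraries. Trem2, a lipid-sensing receptor of lipid-associated macrophages, read 2183, 1979 and 1482 against 10.6, 9.41 and 21.3, 137-fold apart. Cd163, the haemoglobin scavenger receptor, was low even in BEC tumour. It read 192, 149 and 63.6 there and 0 in the other 9 endothelial libraries, at least 12.0-fold higher than BEC normal. Folr2, a folate receptor of resident macrophages, read 812, 739 and 466 against 0, 0 and 5.08, with exons shared with Gm10602. Cd14, the co-receptor for lipopolysaccharide, was already present at 498, 494 and 456 in BEC normal and read 1227, 1268 and 988 in BEC tumour, 2.40-fold higher.

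The Fc receptors bind the constant part of antibodies, and Fcer1g and Tyrobp are signalling chains that carry an activation motif. Fcgr3 read 3208, 3112 and 2027 in BEC tumour against 15.0, 22.4 and 15.2 in BEC normal, 159-fold apart. Fcer1g read 1428, 1478 and 827 against 37.0, 0 and 10.2, 79.1-fold apart, and Tyrobp, which serves Trem2, read 3672, 3249 and 2335 against 28.2, 9.41 and 6.10, 212-fold apart. The high-affinity receptor Fcgr1 was low, with 112, 90.5 and 75.8 against 33.5, 7.06 and 11.2, 5.38-fold apart. The inhibitory receptor Fcgr2b read 253, 263 and 148 against 42.3, 17.7 and 12.2, 9.21-fold apart. Fcgr2b and Fcgr3 are alike in sequence and may have exchanged reads.

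Genes for signalling, lysosomes and the cytoskeleton of leukocytes divided by how much BEC normal held. Ptprc, which encodes the CD45 that the sort was to exclude, read 855, 728 and 401 in BEC tumour and 24.7, 8.24 and 15.2 in BEC normal, 41.2-fold apart. Spi1 read 979.5, 865 and 706 against 34.4, 0 and 8.13, 60.0-fold apart. Laptm5, a lysosomal membrane protein of blood cells, read 6030.2, 5841 and 3789 against 110.2, 35.3 and 25.4, 91.6-fold apart. Ctss, the protease cathepsin S, was 129-fold higher, Cybb, a subunit of the phagocyte oxidase, 32.0-fold, and Plek, the platelet and leukocyte protein pleckstrin, 19.4-fold. Ms4a7, a tetraspan protein of macrophages, read 562, 512 and 279.9 in BEC tumour and 0 in the other 9 libraries, at least 40.1-fold above BEC normal. Lcp1 and Coro1a, actin-binding proteins of leukocytes, differed least, by 2.54-fold and 1.83-fold. Both were already present in BEC normal, where Lcp1 read 1805, 1327 and 2264 and Coro1a 236, 151 and 190.0. BEC normal replicate 1 held more of several of these genes than the other BEC normal libraries, and without it the log2 difference of BEC tumour from BEC normal went from 5.87 to 7.62 for Spi1, 6.28 to 7.86 for Fcer1g, 7.72 to 8.64 for Tyrobp, 6.51 to 7.43 for Laptm5, 5.93 to 6.89 for Msr1, 2.42 to 3.34 for Fcgr1 and 3.20 to 3.89 for Fcgr2b. The remaining BEC normal libraries were at or under the floor for Spi1, Fcer1g, Tyrobp and Fcgr1. Aif1, which encodes IBA1, read 64.9, 50.8 and 37.5 in BEC tumour and was at the floor in BEC normal.

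The cytokine receptor chains for granulocyte-macrophage colony-stimulating factor were unequal, with Csf2rb 27.5-fold and Csf2ra 2.99-fold above BEC normal. Csf2ra read 249.6, 255 and 205 in BEC normal, so this chain was already present there. Arg1, the arginase of alternatively activated macrophages, was close to the floor at 22.3, 21.1 and 12.2 in BEC tumour. The granulocyte genes were low as well: S100a8 read 47.3, 26.2 and 35.7, S100a9 14.8, 11.0 and 25.3, and Csf3r, the receptor for granulocyte colony-stimulating factor, 113, 97.3 and 47.1. Csf3r was 0 in all BEC normal libraries, at least 7.63-fold below BEC tumour.

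Levels of different genes were compared per length, as TPM (the transcript share of a library, corrected for length) computed from the deposited values and exon lengths. In BEC tumour the order began with Cd68 at 1898 ± 131 TPM and Lyz2 at 1581 ± 398 TPM (SD, n = 3 each), with Cd68 above Lyz2 in every library. Apoe followed at 420.0 ± 110.0 TPM, then C1qb at 284 ± 77.3 TPM. Next came C1qa at 218 ± 65.0, Tyrobp at 185 ± 44.1, Ctss at 159 ± 58.4 and C1qc at 157 ± 51.4 TPM. These were the 8 members over 100 TPM. In every BEC tumour library C1qb was above C1qa, C1qa above Tyrobp and Tyrobp above Ctss, while Ctss and C1qc changed places between libraries. The 3 C1q chains, which form 1 protein complex, were therefore within 2-fold of each other. Fcgr3 and Mertk stood at 64.2 TPM each, 22 members were over 10 TPM, and 28 were over 2 TPM. At the low end Ptprc was at 1.45 ± 0.53 TPM, Cd163 at 0.99 ± 0.49, Csf3r at 0.95 ± 0.40 and Arg1 at 0.33 ± 0.10 TPM.

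The mix of members differed between groups. Summed over the members, CPM (counts scaled to the same library total) were 2402 to 3590 in BEC tumour, 195 to 231 in BEC normal, 645 to 657 CPM in HEC normal and 532 to 547 CPM in HEC tumour. Cd68 made up 29.5% ± 4.8 of that sum in BEC tumour (SD, n = 3 here and below), 52.0% ± 2.7 in BEC normal, 66.9% ± 0.98 in HEC tumour and 74.9% ± 1.6 in HEC normal. Mertk made up 3.4% of the sum in BEC tumour and 17.1% to 20.3% in the other groups. Lyz2 was the reverse, with 25.0% ± 1.2 in BEC tumour and between 0.88% and 1.92% elsewhere. In the HEC groups Cd68 and Mertk together thus made up most of the sum.

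Which members these endothelial cells held without the other myeloid genes was described by their level outside BEC tumour. Of 36 members, 24 were above the floor in BEC normal, 21 in HEC normal and 17 in HEC tumour, and 5, 6 and 7 were at 0 in all libraries of those groups. A mean of over 10% of the BEC tumour mean was reached by 12 members in BEC normal, 9 in HEC normal and 8 in HEC tumour, 13 different genes in all. Of these, 12 were above the floor in at least 1 group that passed the 10%: Cd68, Mertk, Cd14, Fcgr1, Fcgr2b, Plek, Lcp1, Coro1a, Csf2ra, Arg1, S100a8 and S100a9, while Aif1 was at the floor. Fcgr1 and Fcgr2b passed in BEC normal only, where replicate 1, at 33.5 and 42.3, held more than the other libraries, at 7.06 to 17.7. That library also held more Spi1, Fcer1g, Tyrobp and Laptm5, so these 2 genes are not shown to be held without other myeloid genes. Without BEC tumour replicate 3, 10 genes in place of the 13 reached 10%. Mertk, Arg1, S100a8 and S100a9 were above their BEC tumour mean in both HEC groups. At the other end, Adgre1, C1qa, C1qb, C1qc, Cd163, Ms4a7, Folr2, Aif1 and Csf3r were at or under the floor in all 3 other groups.

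**Figure D2:**
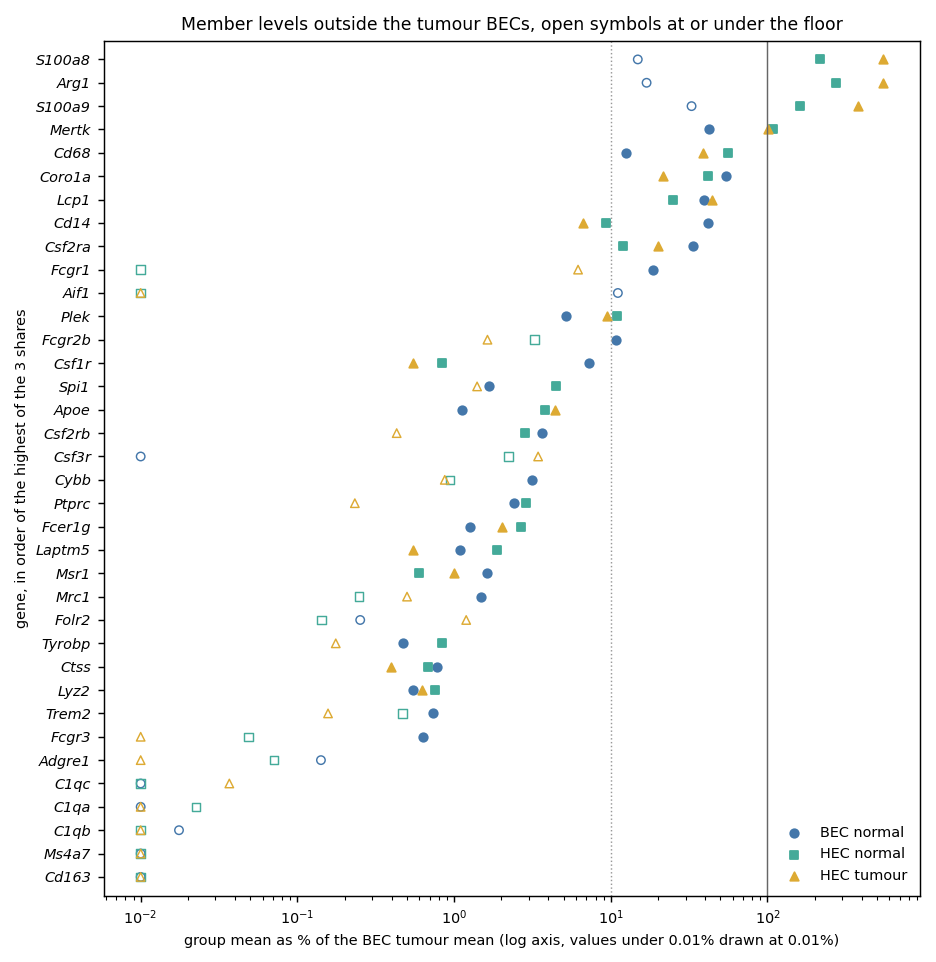
Mean of BEC normal, HEC normal and HEC tumour as a percentage of the BEC tumour mean (log axis, values under 0.01% drawn at 0.01%) for the 36 members, with open symbols for means at or under the floor and lines at 10% and 100%. Cd68, Mertk, Lcp1 and Coro1a stand over 10% in all 3 groups with filled symbols, and Cd163 and Ms4a7 stand at the left edge with open symbols, with the C1q chains at the edge or close to it.

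Each gene was also set against leukocyte genes of the same libraries. The reference was the summed TPM of 8 members known from leukocytes, Ptprc, Tyrobp, Fcer1g, Laptm5, Spi1, Csf1r, Cybb and Plek. Lcp1 and Coro1a had belonged to it and were left out after the data were seen. Outside BEC tumour Lcp1 stood above all the others, at 7.12 TPM in BEC normal, 4.38 in HEC normal and 8.51 TPM in HEC tumour. Coro1a, at 2.61, 1.93 and 1.09 TPM, did not. In both HEC groups it was under Plek, which was kept, at 2.80 and 2.65 TPM. Cd68 was at 537% of this sum in BEC tumour but at 5103% in BEC normal, 14230% in HEC normal and 15632% in HEC tumour. Mertk rose from 17.9% in BEC tumour to 581%, 924% and 1367% in those groups. Cd14 was at 7.47% in BEC tumour and 240% in BEC normal, and Csf2ra at 2.62% and 70.4%. C1qb went the other way, from 77.0% in BEC tumour to 1.4% in BEC normal and 0 in both HEC groups, and Apoe was at 115% in BEC tumour, 100% in BEC normal, 221% in HEC normal and 392% in HEC tumour. These percentages depend on the choice of reference. Plek stood at 128% of the other reference genes in HEC tumour, 71.9% in HEC normal and 37.0% in BEC normal, against 8.06% in BEC tumour. Csf1r stood at 46.5% of the others in BEC normal. In HEC tumour Ptprc, Tyrobp, Spi1 and Cybb were at or under the floor. Outside BEC tumour the percentages are thus largely set by Plek and Csf1r and do not measure leukocyte content. With Lcp1 and Coro1a in the sum, the values outside BEC tumour were lower: Cd68 stood at 504% in BEC tumour against 1574% in BEC normal, Mertk at 16.8% against 178%, Cd14 at 7.01% against 73.8% and Csf2ra at 2.46% against 21.9%. Apoe then stood at 108% in BEC tumour, 32.0% in BEC normal, 115% in HEC normal and 129% in HEC tumour.

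HEC normal was then compared with BEC normal, to ask which members differ between the endothelium of lymph node and fat pad without a tumour. This contrast shares the BEC normal libraries with the one for which the members were listed. Of 36 members, 6 were called higher in HEC normal, beside 17.1% of all genes, and 9 were called lower, beside 15.1%, where a call is an adjusted p under 0.05 by DESeq2's Wald test and a change of over 2-fold. Cd68 was higher by 2.15 ± 0.06 on the log2 scale (SE; adjusted p = 1.43e-263), Mertk by 1.37 ± 0.11 (2.59e-34) and Apoe by 1.75 ± 0.27 (2e-10). Plek was higher by 1.08 ± 0.32 (adjusted p = 0.00181), and was no longer called without BEC normal replicate 2 or 3, at 0.96 and 0.81. In the same fit, Arg1 rose by 4.12 ± 0.89 (adjusted p = 9.81e-06), from 0, 9.41 and 0 to 69.0, 27.5 and 55.4, and S100a8 by 3.87 ± 0.88 (3.04e-05), from 0, 0 and 16.3 to 53.8, 78.4 and 106. The BEC normal means of Arg1 and S100a8 were at or under the floor, so the sizes of these rises are uncertain. The 6 members called higher did not overlap between the groups. In all, 7 members were higher without overlap, beside 32.7% of genes, and 9 lower, beside 34%. Without BEC normal replicate 1, 10 members were called higher, with Fcer1g, Laptm5, Spi1 and S100a9 added, and Laptm5 was also called without HEC normal replicate 3 (1.19).

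Genes lower in lymph node HECs than in fat pad BECs included Csf1r and Cd14. Csf1r fell by 3.13 ± 0.39 on the log2 scale (SE; DESeq2 adjusted p = 8.57e-15), from 301, 180.0 and 197 to 34.5, 11.2 and 31.5. Cd14 fell by 2.17 ± 0.28 (9.66e-14), from 498, 494 and 456 to 124, 144 and 55.4, and Csf2ra by 1.48 ± 0.31 (3.95e-06), from 249.6, 255 and 205 to 87.2, 86.5 and 80.3. No library of these genes overlapped between the groups. Mrc1, Fcgr1, Fcgr3 and Aif1 were also called, but their levels in HEC normal were at or under the floor. The mean of 10 needed for a test was taken over all 12 endothelial libraries. Fcgr1, Fcgr3 and Aif1 passed it only through BEC tumour, the group for which the members were listed. With only the 6 libraries compared, 4 members were called lower. Msr1 fell by 1.46 ± 0.55 (adjusted p = 0.0146) with overlapping libraries, and lost its call without BEC normal replicate 1, at −0.51 (adjusted p = 0.376), or without HEC normal replicate 1 or 3, at −1.19 and −1.48. Cybb fell by 1.74 ± 0.74 (adjusted p = 0.0309), with libraries that overlapped, and lost its call without any 1 library except BEC normal replicate 3, at −1.38 to −1.87.

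The effect of a tumour on members in lymph node endothelium was asked by HEC tumour against HEC normal, a contrast that did not choose them. As above, the mean needed for a test was taken over all 12 endothelial libraries, so members with little RNA in HECs were tested too. Here 3 members were called higher, beside 4.58% of all genes, and 4 lower, beside 3.21%, and the median log2 difference was −0.16 (0.02 over all genes). The 3 higher calls, C1qc, Folr2 and Fcgr1, rested on means at or under the floor in both groups: C1qc read 0 in all HEC normal libraries and 0, 3.95 and 4.43 in HEC tumour, and Fcgr1 read 0 in all HEC normal libraries and 0, 3.95 and 13.3 in HEC tumour. Folr2 read 0, 0 and 2.87 in HEC normal and 11.5, 5.92 and 6.64 in HEC tumour. These 3 members passed the mean of 10 for a test only through BEC tumour, the group for which the members were listed. Csf2rb, among the 4 lower, was under that mean in the HEC libraries. With only the 6 libraries compared, 1 member was called higher. No fold is given for C1qc, Folr2 and Fcgr1. Libraries did not overlap for 5 members that were higher, beside 24.7% of genes, and 5 that were lower, beside 24.1%, and 3 members were over 2-fold higher without overlap, beside 6.26%.

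Of the members that fell, Ptprc went from 15.2, 12.2 and 29.6 to 4.62, 0 and 0, a log2 change of −3.71 ± 0.89 (SE; DESeq2 adjusted p = 1.97e-04). Csf2rb fell by 2.67 ± 0.80 (0.00381), from 8.11, 16.3 and 16.2 to 0, 3.95 and 2.21, and was not called when the values were divided by the step. Laptm5 fell by 1.78 ± 0.66 (0.0236), from 111, 151 and 31.5 to 33.5, 30.6 and 21.0, and lost its call when any 1 of 4 libraries was left out (HEC normal 1 or 2, HEC tumour 2 or 3; adjusted p 0.0512 to 0.162). Spi1 fell by 1.68 ± 0.69 (0.0435), from 45.6, 36.6 and 32.5 to 13.9, 10.9 and 11.1, and lost its call without any 1 of the 6 libraries (adjusted p 0.0744 to 0.138). The HEC tumour means of Ptprc, Csf2rb and Spi1 were at or under the floor, so the sizes of these falls are uncertain. Tyrobp read 45.6, 28.5 and 3.82 against 0, 11.8 and 4.43, a difference of −2.24 ± 1.06 that was not called (adjusted p = 0.0872). It was called without HEC normal replicate 3 or HEC tumour replicate 2, at −2.75 and −3.54, and with values divided by the step, at −2.29 (0.0251).

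Members with high levels in HECs were not called. Cd68 read 24096, 23235 and 22614 in HEC tumour, under all HEC normal libraries, a log2 change of −0.51 ± 0.06 (SE; DESeq2 adjusted p = 1.37e-15) that did not reach the 2-fold of a call. Mertk differed by −0.11 ± 0.11 (0.497), Apoe by 0.21 ± 0.26 (0.589) and Plek by −0.21 ± 0.32 (0.673). Lcp1 read 1183, 1152 and 1067 in HEC normal and 2388, 1387 and 2254 in HEC tumour, a difference of 0.83 ± 0.28 (0.0101) under the 2-fold of a call, which it passed without HEC tumour replicate 2, at 1.03. Coro1a differed by −0.95 ± 0.37 and passed without HEC normal replicate 3, at −1.28, or HEC tumour replicate 2, at −1.05. The granulocyte gene S100a8 read 173, 219 and 207 in HEC tumour against 53.8, 78.4 and 106, with no overlap, and its difference of 1.33 ± 0.81 was not called (adjusted p = 0.204). It was called when only the 6 HEC libraries were fitted (1.32, DESeq2 adjusted p = 2.12e-05) and with values divided by the step (1.32, 0.0083). Arg1 read 118, 78.9 and 107 against 69.0, 27.5 and 55.4, again with no overlap and not called (1.00 ± 0.75, adjusted p = 0.317).

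Set beside BEC tumour, HEC tumour held less of 32 members in every library, where 31.8% of genes were lower without overlap, with a median log2 difference of −6.73 over the 36. It held more of Arg1 and S100a8, where 30.9% of genes were higher without overlap. This too is a description, since the members were known from it. Mertk and S100a9 overlapped.

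To describe the state of the myeloid RNA in BEC tumour, 17 lists of 217 other genes were compared between BEC tumour and BEC normal, in which 12.4% of all genes were called higher and 10.8% lower. The lists were written with earlier results of these data known. The 8 leukocyte members of the reference above, listed as high in BEC tumour, summed to 5.31 to 12.2 CPM in BEC normal and 186 to 342 CPM in BEC tumour. With Lcp1 and Coro1a the sums were 27.2 to 42.1 CPM and 236 to 439 CPM. The list of 32 other genes of leukocytes and phagocytes summed to 703 to 794 CPM in BEC normal and 1212 to 1487 CPM in BEC tumour. Whether genes called higher or lower came from myeloid cells was not tested. Across the 17 lists 82 genes were called higher and 26 lower, and 77 and 23 without BEC tumour replicate 3. Of 32 other genes of leukocytes and phagocytes in general, 25 were higher and none was lower, with a median log2 difference of 3.43. Mpeg1, a pore-forming protein of phagosomes, rose by 5.78 ± 0.37 on the log2 scale (SE; DESeq2 adjusted p = 5.93e-52), and Nckap1l, a regulator of leukocyte actin, by 4.03 ± 0.33 (3.27e-33). Slc11a1, the divalent metal transporter of phagosomes, rose by 2.75 ± 0.43 (6.8e-10), Sirpa, the receptor for CD47, by 1.52 ± 0.33 (1.41e-05), and the integrin chain Itgb2 by 1.41 ± 0.17 (3.2e-15). Lilrb4a, an inhibitory receptor, rose by 2.61 ± 0.22 (1.16e-31) but read more in HEC tumour, 7529 on average, than in BEC tumour, and its exons overlap other gene models.

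Among genes of tissue-resident macrophages, 12 of 16 tested were higher and 2 lower. Marco, a scavenger receptor of resident macrophages, read 24806, 21653 and 14056 in BEC tumour and 0 in all BEC normal libraries, at least 1792-fold higher (DESeq2 adjusted p = 1.38e-42). Cd5l, a secreted protein of the same cells, read 16076, 13899 and 9308 against 0, at least 1163-fold higher (adjusted p = 9.33e-17). At 419.7 and 258 TPM they stood at the level of Apoe and the C1q chains. Selenop, the selenium carrier, rose by 1.4 ± 0.22 on the log2 scale (SE; 1.56e-09). Lower were Lyve1, the hyaluronan receptor of lymphatic endothelium and some resident macrophages, by −2.05 ± 0.11 (1.57e-81), and Gas6, the bridging ligand of Mertk, by −2.55 ± 0.23 (5.84e-27). Timd4, the phosphatidylserine receptor of long-lived macrophages, read 24.1, 103 and 0 in BEC tumour and was not called (adjusted p = 0.0787).

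Of 18 genes of tumour and lipid-associated macrophages, 6 were higher and 1 was lower, with a median log2 difference of 0.33. Gpnmb, a glycoprotein of such cells, read 74156, 69105 and 53664 against 2917, 2677 and 3094, a log2 change of 4.50 ± 0.11 (SE; DESeq2 adjusted p below what the software can represent). Mmp12, the elastase of macrophages, read 4965, 4171 and 2681 against 0 in all BEC normal libraries, at least 350-fold higher. Lgals3, a galectin, rose by 1.45 ± 0.18 (1.5e-14), the protease gene Ctsb by 1.35 ± 0.10 (3.16e-39), the lipase gene Lpl by 1.63 ± 0.32 (1.65e-06) and Cd72, an inhibitory receptor, by 2.49 ± 0.83 (0.00605). Slc7a2, an arginine transporter, fell by 1.22 ± 0.34 (8.32e-04). Spp1, which encodes osteopontin, read 5342, 7174 and 5309 in BEC tumour and 12426, 8968 and 9233 in BEC normal, a log2 difference of −0.78 ± 0.17 short of a call.

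Genes of inflammatory activation went both ways, with 5 of 14 tested higher and 2 lower. Cd86, a costimulatory ligand, read 191, 173 and 134 against 0 in all BEC normal libraries (DESeq2 adjusted p = 3.15e-12). The chemokine genes Ccl3 and Ccl4 rose by 2.35 ± 0.71 on the log2 scale (SE; 0.0023) and 5.53 ± 0.78 (1.06e-11). The cytokine gene Il1a read 79.8, 68.5 and 53.2 against 0, 14.1 and 0 (3.82e-04). Cxcl9, an interferon-induced chemokine, was called at 11.1, 20.3 and 12.2 against 0, close to the floor. Nos2, the inducible nitric oxide synthase, fell by 3.07 ± 0.31 (5.9e-22), to 15.8, 43.1 and 37.5, and Il6 by 2.36 ± 0.30 (2.63e-14). Il1b and Il12b did not reach the mean for a test, with at most 16.6 in any BEC tumour library, and Tnf read 14.8, 12.7 and 12.2.

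Genes of alternative activation gave 4 of 10 higher and 1 lower. The chitinase-like gene Chil3 read 1057, 755 and 485 against 3.53, 0 and 0 (DESeq2 adjusted p = 1.38e-14), and Clec7a, the receptor for fungal glucans, 1677, 1186 and 677 against 0, 4.71 and 7.11 (adjusted p = 1.07e-06). The cytokine gene Il10 and the inhibitory receptor Cd200r1 were also higher, at 62.1 to 85.4 and 113 to 318 in BEC tumour. Mmp19, a matrix protease, fell by 1.47 ± 0.31 on the log2 scale (SE; 5.93e-06). Retnla, together with Arg1 a usual marker of this state, read 36.6 to 51.0 in BEC tumour and was not called (adjusted p = 0.138).

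Genes of other myeloid cells varied. Ccr2, the chemokine receptor of inflammatory monocytes, read 7.42, 3.38 and 3.49 in BEC tumour and was not tested. Of the other monocyte genes 3 of 8 tested were higher and 4 lower, by DESeq2. Ms4a6c, a tetraspan protein, read 1518, 1255 and 546 against 8.82, 0 and 15.2 (adjusted p = 1.35e-04), and Hp, haptoglobin, and F10, a coagulation factor, were higher at 26.2 to 112. Ly6c2, a surface marker of inflammatory monocytes, fell by 2.29 ± 0.28 on the log2 scale (SE; 4.25e-15), Plac8 fell by 2.28 ± 0.18 (1.41e-34) and Vcan, a matrix proteoglycan, fell by 3.11 ± 0.32 (4.53e-21). The summed neutrophil list was 2221 to 2580 CPM in BEC tumour against 233 to 267 CPM in BEC normal. Most of this sum, in both groups, came from Lcn2, a siderophore-binding lipocalin that epithelial cells also make, at 165610.0, 168879 and 146025 against 15533, 18221 and 16399. The sum therefore does not describe neutrophil genes as a set. Of 16 neutrophil genes, 8 were at or under the floor in BEC tumour and 4 of 6 tested were higher, among them Lcn2 by 3.26 ± 0.10 (5.13e-255), the lectin gene Clec4d by 5.56 ± 0.21 (3.64e-149), Mmp8, the neutrophil collagenase, at 925, 829.9 and 299 against 0, and Ly6g, the neutrophil surface marker, at 132, 155 and 167 against 0, 0 and 2.03. Dendritic cell genes gave 1 higher and 1 lower of 7 tested, the integrin chain Itgax by 1.01 ± 0.39 (0.0187) and the lectin gene Clec9a by −1.90 ± 0.43 (3.86e-05), and Itgax fell under the 2-fold of a call without any 1 of 4 libraries (0.86 to 0.99). MHC class II genes, which serve antigen presentation, rose in 4 of 5 tested, H2-Ab1, H2-Aa, H2-Eb1 and Cd74, the invariant chain. Their levels in BEC tumour were low beside the C1q chains, at 3.92 TPM for H2-Aa and 22.2 TPM for Cd74.

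Of the lymphoid lists, T and NK cells had 2 genes tested. Cd4, the co-receptor of helper T cells, rose from 3.53, 0 and 0 to 2691, 2388 and 1412 (DESeq2 adjusted p = 2.31e-04), whereas Cd3e, Cd3d and Cd3g, the defining T cell receptor chains, did not exceed 27.03 in any BEC tumour library. Cd247, another chain of that receptor, was lower (DESeq2 adjusted p = 0.0481) and lost its call without any 1 of 4 libraries (0.13 to 0.213). Of 8 B and plasma cell genes 6 were higher, at 29.7 to 393 in BEC tumour, among them Ms4a1, Cd79a, Cd79b, Ighm and Mzb1. Mast cell and basophil genes gave 2 of 4 higher, the stem cell factor receptor Kit, at 407 to 535, and the chymase Cma1, at 20.9 to 28.8, and platelet genes 1 of 4, Gp9, at 181 to 215.

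Genes of other lineages moved too. Fibroblast and pericyte genes fell in 7 of 9 tested, among them Acta2, smooth muscle actin, by −3.72 ± 0.19 on the log2 scale (SE) and Col1a1, a collagen chain, by −3.94 ± 0.61, while Dcn, the proteoglycan decorin, at 539.9, 695 and 207 against 243, 149 and 152, was called higher and lost its call without any 1 of 4 libraries (adjusted p 0.0783 to 0.155, DESeq2). Their summed level was 91.3 to 123 CPM in BEC tumour against 845 to 855 CPM in BEC normal. Epithelial genes rose in 6 of 7, Krt5, Krt8, Krt14, Krt18, Krt19 and Cdh1, with a sum of 19.95 to 93.6 CPM against 3.61 to 6.92 CPM. General endothelial genes were lower in 4 of 12, Kdr, Flt1, Cldn5 and Esam, and higher in none, with sums of 2649 to 2721 CPM against 3604 to 3857 CPM. Of the scavenger and Fc receptors of endothelium, Stab1 (−1.31 ± 0.07 on the log2 scale, SE), Cd93 (−3.21 ± 0.07) and Fcgrt (−1.81 ± 0.22) fell, and Cd36, the fatty acid receptor shared with macrophages, rose from 0, 4.71 and 8.13 to 3434, 2467 and 1583, each by DESeq2 at an adjusted p of 1.53e-15 or less. The part of these shifts in the levels of the members was not tested.

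**Figure D3:**
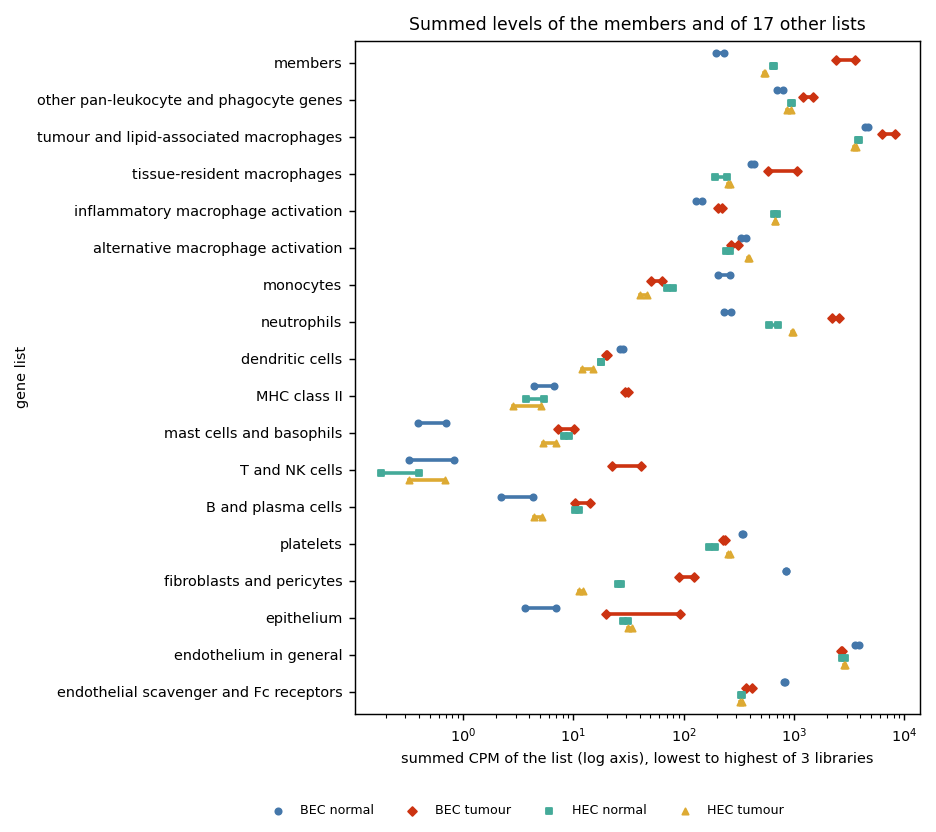
Summed CPM (log axis) of the 36 members and of 17 other gene lists in the 4 endothelial groups, drawn from the lowest to the highest of 3 libraries. The members reach 2402 to 3590 CPM in BEC tumour against 195 to 231 CPM in BEC normal. The neutrophil list, most of it Lcn2, reaches 2221 to 2580 CPM against 233 to 267 CPM. The monocyte sum is 50.4 to 63.4 CPM against 206 to 265 CPM. With the median over the genes in place of the sum, the log2 ratio of BEC tumour over BEC normal for monocyte genes turned to 4.01.

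BEC tumour replicate 3 had lower levels of most members than the other BEC tumour libraries. It was the lowest of the 3 libraries in 33 of 36 members, where 38.0% of genes with a mean of at least 100 had it lowest. Its level was 59.4% of the mean of replicates 1 and 2 in the median over members, from 29.4% for Mrc1 to 196% for S100a9, beside a median of 99.7% over 12995 such genes (5th to 95th percentile, 64.1% to 131%). Coro1a, S100a8 and S100a9 stood at 97.2% to 196%, and Cd68 at 91.6%.

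The other lists did not all follow. Tissue-resident genes called higher had a median of 48.1%, and replicate 3 was lowest in 12 of 12 of them. Genes of MHC class II stood at a median of 102%, those of B and plasma cells at 114%, and epithelial genes at 412%. Krt8, an epithelial keratin, read 35.2, 179 and 2235, and Epcam, an epithelial adhesion molecule, 17.6, 26.2 and 261 in replicates 1 to 3. Krt18, called at 2.23 ± 0.81 on the log2 scale (SE; DESeq2 adjusted p = 0.0123), turned to −0.13 without replicate 3, and Krt14 lost its call without it (adjusted p = 0.0587). The part of epithelial or tumour cell RNA in the lower myeloid level of that library was not tested.

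**Figure D4:**
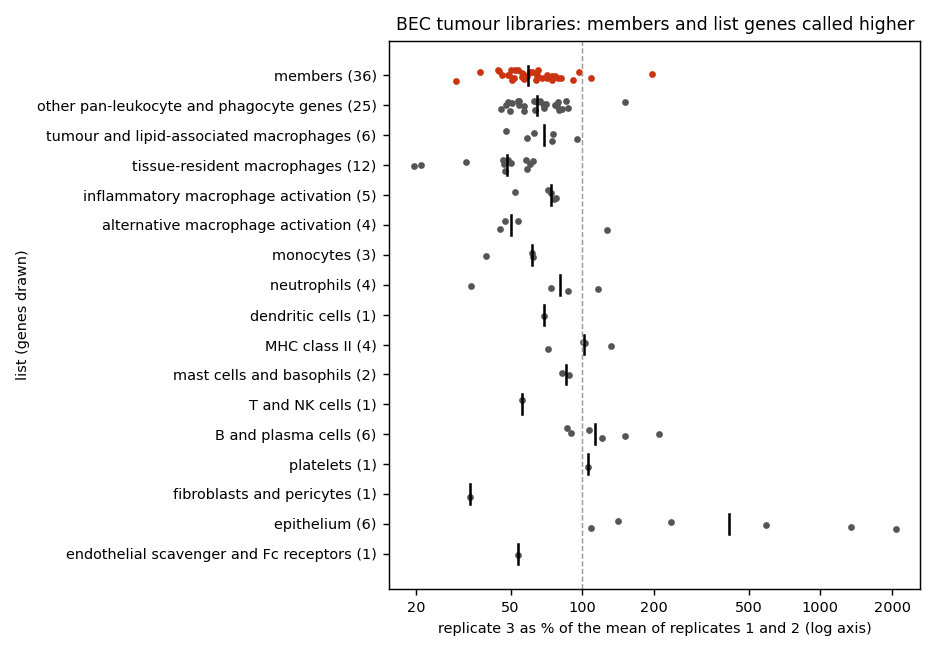
Level of BEC tumour replicate 3 as a percentage of the mean of replicates 1 and 2 (log axis), 1 point per gene, for the 36 members and for the genes of other lists called higher in BEC tumour, with a bar at each median and a dashed line at 100%. The members have a median of 59.4% and tissue-resident macrophage genes 48.1%, and epithelial genes lie to the right with a median of 412%.

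EO771 cells, the tumour line itself, expressed few members. With vehicle 15 members were above the floor and 11 were at 0 in all libraries, and with 12-HETE 13 were above it and 17 at 0. C1qa, C1qb, C1qc, Tyrobp, Msr1, Trem2, Cd163, Ms4a7, Csf2rb, S100a8 and S100a9 had no count in any of the 6 libraries. Members with the highest counts were Apoe, with 510, 518 and 410 given vehicle, Cd14, with 375, 476 and 288, Cd68, with 297, 282 and 225, and Mertk, with 164, 174 and 169. Lyz2 had 4, 2 and 3 counts and Adgre1 0, 0 and 2.

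The comparison of 12-HETE with vehicle could test 9 members, of which none was called higher and 1 lower, beside 2.38% and 7.79% of all genes. Fcgr1 fell from 43, 108 and 61 counts to 5, 3 and 2, 20.7-fold lower (log2 change −4.38 ± 0.62, SE; DESeq2 adjusted p = 2.38e-11). Cd14 had 204, 207 and 224 counts with 12-HETE, 1.77-fold lower and under every vehicle library (−0.82 ± 0.19, adjusted p = 6.18e-05), which is less than the 2-fold of a call. Cd68 at 272, 284 and 304 counts and Mertk at 166, 175 and 181 overlapped with vehicle (adjusted p = 0.56 and 0.798). In the same test Apoe differed by −0.20 ± 0.13 (adjusted p = 0.189), Fcgr3 by −0.25 ± 0.28 (0.48), Csf1r by −0.33 ± 0.54 (0.643), Lcp1 by −0.19 ± 0.30 (0.622) and Fcer1g by 0.89 ± 0.54 (0.163). Among all 36 members, 7 were lower and 2 higher in every 12-HETE library, most of them at a few counts, where 30.5% of genes tested were lower without overlap and 30.2% higher. No member was over 2-fold higher without overlap, beside 2.53% of genes.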

How the data were processed

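RNA was sequenced from 12 endothelial and 6 EO771 libraries. Per the methods, the authors aligned reads to GRCm38 with STAR and counted them with featureCounts. The authors deposited endothelial values that are whole numbers rising in steps, used here as estimated counts per Ensembl gene, and for EO771 the authors deposited raw counts per gene symbol. For EO771, the methods on RNA editing name a directional kit and removal of duplicate reads, and whether the deposited counts followed those steps is not given in the sources used here, nor are strand and duplicates for the endothelial libraries. Labels and methods name different library kits. Genes with a mean of at least 10 over all libraries of a fit were tested (18511 endothelial, 11602 EO771). Tests used DESeq2 1.42.0 with R 4.3.3, in 1 fit of all 12 endothelial libraries and 1 of the 6 EO771 libraries. Benjamini-Hochberg adjustment was over all genes tested. A call needed an adjusted p under 0.05 and a log2 fold change over 1 in size. Alternatives used edgeR 4.0.16, TMM factors, other filters and call rules, a replicate block and left-out libraries. The code was tested on simulated data. Members and lists were chosen with earlier results of these data known. All members are named, and of other lists the called genes, or the 6 with the highest BEC tumour level where more were called, with other genes named after their values were seen. Some called genes of these lists are not reported here. TPM used exon lengths of the GRCm38 annotation, and exons of 7 members overlap another gene, so reads there are uncertain. These are Csf1r, Folr2, Fcgr2b, Plek, Lcp1, Coro1a and Csf2rb. No replicates held identical values. The replicate numbers of the titles were not used as pairs, since no source says that they mark a shared animal or day.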

Additional observations from a re-analysis of the deposited data

Results flagged for a closer look

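Members with means above the floor in all 4 endothelial groups were looked at, and named genes of other lists that also changed over 2-fold in both cell types. In 5 of these genes every library of the tumour group moved one way in HECs and the opposite way in BECs, when the tumour group was set against its normal group of the same cell type. The difference between the HEC and BEC changes was not tested. Of all genes tested, 24.7% were higher and 24.1% lower without overlap in HECs, and 29.1% and 30.4% in BECs. The share of all genes with opposite moves in the 2 cell types was not computed, so nothing is drawn from the count. Cd68, the lysosomal glycoprotein that HECs hold in quantity, had a log2 ratio of means of −0.51 in HECs and 2.99 in BECs. Plek, pleckstrin, had −0.21 and 4.28. Of the genes of other lists, Mpeg1 had −1.63 and 5.78, Slc11a1 −1.19 and 2.75, and Lpl, the lipoprotein lipase, −1.15 and 1.63. Spi1, Ptprc and Csf2rb also moved in opposite directions in every library, with HEC tumour means at or under the floor. For the members the BEC change is part of what the members were listed for. Mean levels in HEC normal and HEC tumour were 33269 and 23315 for Cd68, 342 and 296 for Plek, 188 and 60.8 for Mpeg1, 56.8 and 24.9 for Slc11a1, and 30.3 and 13.7 for Lpl.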

How the results depend on the processing

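For HEC tumour against HEC normal, where 3 members were called higher and 4 lower, the higher count was 5 with the adjusted p alone, 1 with edgeR, 1 with only the 6 libraries compared, 1 with values divided by the step and 0 when the null was a 2-fold change, and 2 to 4 when 1 library was left out. The lower count was 2 with edgeR, 0 against the 2-fold null, and 2 to 6 when 1 library was left out. For HEC normal against BEC normal, with 6 higher and 9 lower, the lower count was 4 with only the 6 libraries compared, 5 against the 2-fold null and 7 to 9 when 1 library was left out, and the higher count was 5 to 10. For 12-HETE against vehicle, with 1 lower, the count was 2 with the adjusted p alone, 3 with all genes above 0, 0 with a mean of at least 50, which removes Fcgr1 from the test, and 1 whichever library was left out. In the other lists 26 genes were called lower and 43 with the adjusted p alone. When 1 library was left out, 73 to 81 were called higher and 23 to 27 lower, 34 to 36 members were over 2-fold higher in BEC tumour with no overlap, and 10 to 13 (13 with all libraries) passed 10% of their BEC tumour level elsewhere.

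The sign of a log2 difference turned when 1 library was left out, none of them called: Apoe in HEC tumour against HEC normal to −0.0312 (up to 0.37), and, in HEC normal against BEC normal, Ctss to 0.22 and 0.07 (down to −0.65), Ptprc to −0.08 and −0.24 (up to 0.68) and Csf2rb to 0.20 (down to −0.82). In EO771, without vehicle replicate 2, Csf1r turned to 0.51 (down to −0.70) and Lcp1 to 0.0196 (down to −0.40). Krt18 ran from −0.13 to 2.74. The log2 ratio of BEC tumour over BEC normal turned for 4 lists when the median CPM over the genes took the place of the sum, to 5.95 for alternative activation, 4.01 for monocytes, 0.00764 for dendritic cells and 0.99 for platelets. The cause was not tested.

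With the replicate number as a block, 2 members were higher and 4 lower in HEC tumour against HEC normal, 7 and 9 in HEC normal against BEC normal, and 0 and 1 in EO771, and 77 and 25 genes of the other lists. Among the genes followed one by one, which leaves out genes at or under the floor in both groups and list genes that the text need not name, the block added Spi1 in HEC normal against BEC normal (1.76, DESeq2 adjusted p = 0.0157) and lost Itgax, Cd247 and Ms4a1 in BEC tumour against BEC normal, and it changed no other call among them. The rest of the shift in these counts lay in genes not followed one by one. Deviations of same-numbered libraries correlated at −0.06 to 0.20 in the endothelial groups. In EO771 they correlated at 0.09, 0.17 and 0.33 and every library matched its own number best, a hint from the data only.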
